A study of Homo sapiens with 4 samples.

Results

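Genes that set how much glucose enters a cell, how fast glycolysis runs and what becomes of its pyruvate were followed in neuroblastoma cells treated with SGSS05-NS. The 10 genes were TIGAR (C12orf5 in older annotations), SLC2A1, SLC2A3, HK1, HK2, PFKFB3, PFKFB4, LDHA, PDK1 and PKM. They were listed by name for their role in glycolysis, with earlier results of these data known, and stand for 10 of the 57820 genes counted in each library. TIGAR and PFKFB3 were higher after treatment, 4.05-fold and 1.60-fold, LDHA was 1.45-fold lower, SLC2A3 had no fragments in the 4 libraries, and the other 6 genes did not pass the threshold.

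RNA of SY5Y cells, a subline cloned from the neuroblastoma line SK-N-SH and labelled MYCN wild type, was sequenced after 12 h with the solvent DMSO (2 libraries) or with SGSS05-NS (2 libraries). The labels give 3 μM, as does the study's legend for these SY5Y profiles, while its methods give a lower dose and write the compound as SGSS05-NS3. The compound is described there as a covalent inhibitor of SETD8 (gene symbol KMT5A), a lysine methyltransferase. Among the substrates of SETD8 are histone H4 and the tumour suppressor p53. The comparison asks which transcripts differ between treated and solvent-exposed cells, and both groups share the cell line, its genotype and the time of harvest.

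Glycolysis splits glucose into pyruvate. Its pace is set largely at phosphofructokinase-1, which is activated by fructose-2,6-bisphosphate: the PFKFB enzymes make this activator, and TIGAR, first found as a target of p53, removes it and so directs glucose toward the pentose phosphate pathway. Tumour cells commonly take up much glucose and turn pyruvate into lactate through LDHA even where oxygen is present, and the transcription factors HIF-1 and MYC are known to raise transcription of many glycolytic genes.

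Between 21463105 and 25350204 fragments per library were assigned to genes. A larger share of each treated library fell outside annotated exons (15.3% and 16.1%, against 12.3% and 12.4% with DMSO), and its part in the values below was not tested. Of the 12 sympathetic neuroblast markers, 8 of the 11 tested were lower at an adjusted p-value under 0.001, against 8.14% of all genes tested, and the summed level went from 4944 and 5351 CPM (fragments per 1000000 in the library) to 3040 and 2982. The 12 measured markers of other cell types summed to 78.0 and 81.7 CPM with DMSO and to 60.6 and 51.5 with SGSS05-NS, most of it PDGFRB, which was lower (log2 fold change -0.60, adjusted p = 0.000686). Of the 5 tested, 3 had a positive log2 fold change, up to 0.97 for EPCAM (adjusted p = 0.0117), and KRT5 and HBB were at 0 throughout. TH, which defines catecholamine-making cells, had at most 2 fragments in any library. In bulk RNA, fewer cells of a type and less RNA per cell cannot be told apart. KMT5A itself, whose protein rather than transcript the compound is meant to block, was at 54.6 and 56.8 CPM with DMSO and at 82.8 and 82.9 with SGSS05-NS (log2 fold change 0.57, SE 0.09, adjusted p = 0.00037 by edgeR's quasi-likelihood test).

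The 250 bases before the start sites of the 3 genes that passed the threshold are shown here, since the hypoxia response core and the E-box, the motifs bound by HIF-1 and by MYC with MAX, are both short enough to be looked up by eye. Capitals mark ACGTG or GCGTG on either strand, the 2 forms of the hypoxia response core. An E-box, CACGTG, holds ACGTG on both strands and so is always capitalised as well. The sequences are from RefSeq (GRCh38.p14) and were matched base for base to GRCh37, where they lie on the plus strand at chr12:4430129-4430378 for TIGAR, chr10:6244645-6244894 for PFKFB3 and chr11:18415860-18416109 for LDHA. The windows of TIGAR and PFKFB3 lie inside the annotated genes, since other transcripts of both begin farther upstream.
TIGAR: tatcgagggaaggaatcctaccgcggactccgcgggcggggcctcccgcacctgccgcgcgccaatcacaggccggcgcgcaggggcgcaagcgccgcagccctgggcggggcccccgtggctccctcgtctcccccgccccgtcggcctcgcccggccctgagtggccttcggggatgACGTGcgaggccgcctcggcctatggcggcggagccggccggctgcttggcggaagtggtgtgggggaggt
PFKFB3: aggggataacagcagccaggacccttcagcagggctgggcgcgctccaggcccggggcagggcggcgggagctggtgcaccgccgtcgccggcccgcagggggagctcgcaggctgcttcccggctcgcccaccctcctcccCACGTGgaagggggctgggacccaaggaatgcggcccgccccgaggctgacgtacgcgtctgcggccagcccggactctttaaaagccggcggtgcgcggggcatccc
LDHA: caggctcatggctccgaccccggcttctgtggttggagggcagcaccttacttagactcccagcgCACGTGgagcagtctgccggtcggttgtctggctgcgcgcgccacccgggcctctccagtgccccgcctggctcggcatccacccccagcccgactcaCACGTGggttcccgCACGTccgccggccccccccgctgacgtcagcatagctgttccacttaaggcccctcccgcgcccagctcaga
TIGAR had 1 capital stretch, an ACGTG with no E-box around it, and PFKFB3 had 1, which was a whole E-box. LDHA had 3 stretches before its start, among them 2 E-boxes. The promoter window of RefSeq runs on for another 50 bases into the transcript, and over its 300 bases ACGTG or its reverse complement occurred in 5 of the 9 genes with an entry, SLC2A3 having none (HK2, LDHA, PDK1, PFKFB3 and TIGAR), against 21.4% of 35116 promoters of the same length. GCGTG occurred in 6 of 9 (HK1, HK2, LDHA, PFKFB4, PKM and SLC2A1), against 36.5%, and an E-box in 2 of 9 (LDHA and PFKFB3), against 7.26%. Each of the 9 genes stands with its 1 entry nearest the canonical start. The shares are over all RefSeq entries, so a gene can count more than once, whether or not it was tested here. ACGTG was thus present before genes that rose, a gene that fell and genes that did not pass. The 20-base consensus of p53, searched on both strands from 1000 bases before to 5000 bases after the start with at most 2 mismatches outside its conserved cores, matched in PDK1 and in none of the other 8 genes scanned, against 2.64% of the 12518 tested protein-coding genes. A match is a match of letters, and a window without one says nothing about binding.

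Across the 10 genes, 9 had enough fragments to be tested. At an adjusted p-value under 0.001, 2 of these 9 were higher, against 6.37% of the 16468 genes tested, and 1 was lower, against 8.14%. At 0.05 the counts were 2 higher, against 22.6% of all genes, and 2 lower, against 23.7%. Both treated libraries lay above both DMSO libraries for 2 of the 9 genes, against 37.8% of all genes, and below both for 3, against 36.9%. At 0.05 and by overlap the shares were thus at or below those of all genes, and at 0.001 they rest on 2 genes and 1 gene, so the results below are about single genes. The median log2 fold change of the 9 genes was -0.10, beside 0.01 over all genes tested.

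**Figure D1:**
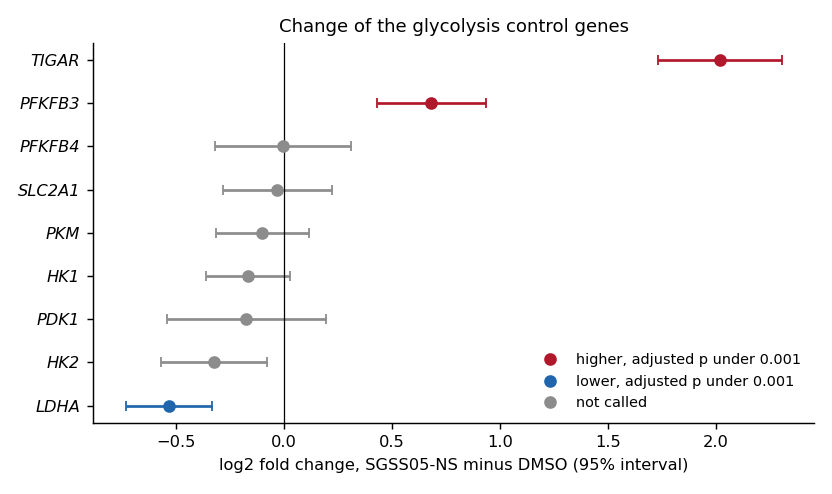
Log2 fold change (SGSS05-NS minus DMSO, horizontal axis) of the 9 tested genes with its 95% interval from edgeR's quasi-likelihood fit. Red marks an adjusted p-value under 0.001 with a higher level, blue the same with a lower level and grey the rest. TIGAR at 2.02 stands to the right of PFKFB3 at 0.68, LDHA lies at -0.53, and 5 of the 6 grey intervals include 0, HK2 being the exception.

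Per base of transcript, the genes spanned a wide range of levels, and treatment moved TIGAR within that order. In CPM divided by transcript length in kilobases (FPKM), the DMSO means ran from PKM (494) and LDHA (273) over HK1 (44.6), SLC2A1 (28.4), HK2 (12.7), PFKFB3 (5.41), PFKFB4 (3.17) and PDK1 (2.24) to TIGAR (0.849), with SLC2A3 at 0. No gene's pair of DMSO values overlapped that of its neighbour in this order. With SGSS05-NS, TIGAR had a mean of 3.44 FPKM and stood above PFKFB4 (3.16) and PDK1 (1.98), again without overlap between neighbours. The order depended on the length used, because TIGAR has 8.21 kb of canonical transcript but 0.81 kb of coding sequence, and PDK1 14.1 and 1.31 kb. Per kilobase of coding sequence TIGAR overlapped PFKFB4 with DMSO, and with SGSS05-NS it was the fifth of the 10 genes, above PFKFB3.

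Of the 3 listed genes that control fructose-2,6-bisphosphate, TIGAR and PFKFB3 were higher and PFKFB4 did not pass. TIGAR (chromosome 12 of GRCh37 from 4416929 to 4469194, plus strand, 6 exons) encodes the bisphosphatase that degrades this activator. It had 163 and 174 fragments with DMSO and 618 and 672 with SGSS05-NS, or 6.50 and 7.45 CPM against 27.8 and 28.6 CPM. Both treated libraries were far above both DMSO libraries, and the treated values lay close to each other. The mean rose from 6.97 ± 0.673 to 28.2 ± 0.513 CPM (SD, n = 2 each), a log2 fold change of 2.02 (SE 0.13, 95% interval 1.73 to 2.30) with an adjusted p-value of 4.87e-07 by edgeR's quasi-likelihood test. In fold, the interval ran from 3.32 to 4.94. TIGAR's change was above 97.8% of the genes tested. The fragments came from its own strand, since the opposite strand held 1 fragment in the 4 libraries together.

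PFKFB3 (chromosome 10 from 6186897 to 6296607, plus strand, 15 exons) encodes the isoenzyme of this family with the strongest preference for making the activator, the reaction that TIGAR undoes. It was at 22.1 and 26.4 CPM with DMSO and at 40.2 and 37.5 CPM with SGSS05-NS. The pairs did not overlap, although the gap was narrower than for TIGAR. PFKFB3 rose by a log2 fold change of 0.68 (SE 0.12, 95% interval 0.43 to 0.93), with an adjusted p-value of 0.000595 by edgeR's quasi-likelihood test. This call was lost without DMSO replicate 1, the lower of the DMSO libraries, when the log2 fold change was 0.55 and the adjusted p-value 0.00251.

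PFKFB4 (chromosome 3 from 48555117 to 48599448, minus strand, 14 exons) encodes a sister enzyme that also makes and breaks the activator. Its values were 11.8 and 10.4 CPM with DMSO and 10.4 and 11.7 CPM with SGSS05-NS. The pairs covered the same range, and the 95% interval of the log2 fold change, -0.32 to 0.31, ran from 1.25-fold lower to 1.24-fold higher.

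Because transcripts of opposing enzymes were both higher, the ratio of these transcripts was taken within each library. Protein and enzyme activity were not measured here. The FPKM ratio of TIGAR to PFKFB3 was 0.160 and 0.154 with DMSO and 0.378 and 0.416 with SGSS05-NS. The treated ratios were the higher ones in both libraries, without overlap. An exact two-sided permutation test gave p = 0.333, which is the smallest that 2 against 2 libraries allow. Per kilobase of coding sequence TIGAR was below PFKFB3 with DMSO (means 8.61 and 15.5) and above it with SGSS05-NS (34.8 and 24.9). The size of the TIGAR to PFKFB3 ratio thus depends on the length used, and its direction of change follows from the fold changes above. The ratio of PFKFB3 to PFKFB4 was 1.47 and 1.98 with DMSO and 3.01 and 2.51 with SGSS05-NS, again without overlap and with the same exact permutation p of 0.333.

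**Figure D2:**
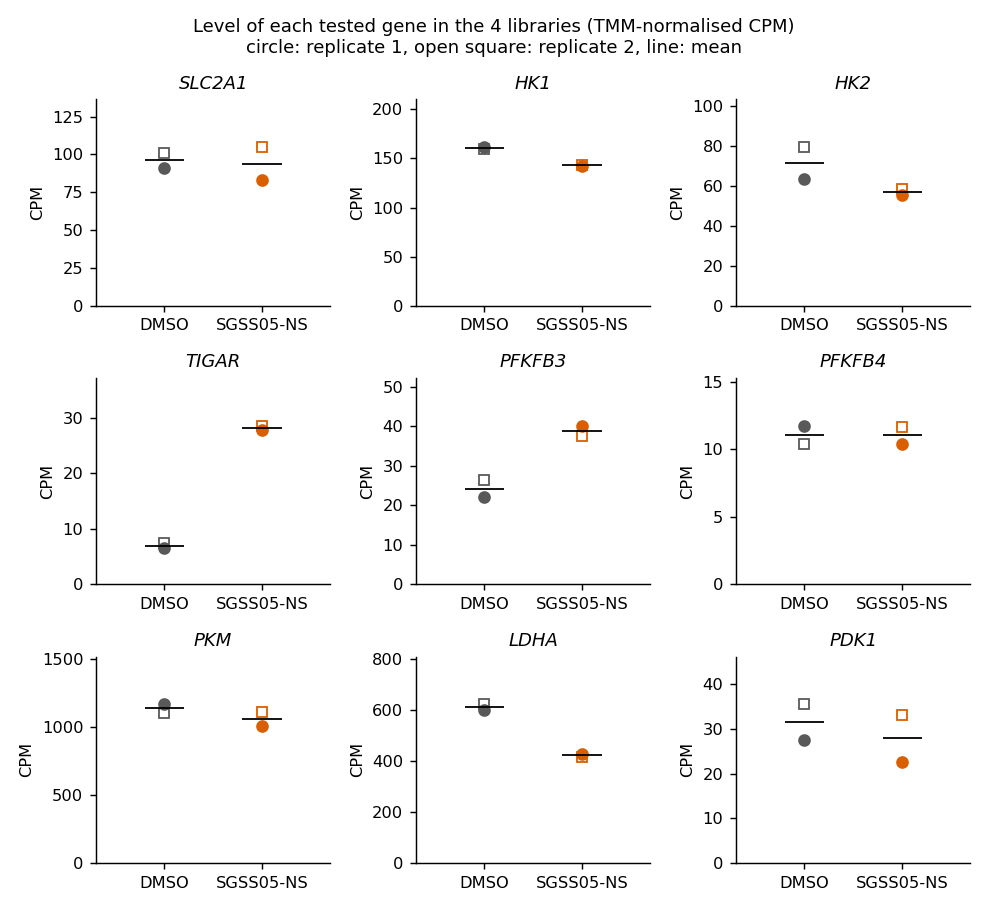
TMM-normalised level in CPM (vertical axes, each starting at 0 with its own range) of the 9 tested genes in the 4 libraries. Filled circles are replicate 1, open squares replicate 2 and lines the mean of a group. TIGAR and PFKFB3 lie higher in both SGSS05-NS libraries, LDHA, HK2 and HK1 lie lower in both, and the pairs of SLC2A1, PFKFB4, PKM and PDK1 overlap.

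Glucose transport showed no change that passed the test. SLC2A1 (chromosome 1 from 43391024 to 43424564, minus strand, 10 exons) encodes GLUT1, the widely expressed glucose carrier. It was at 91.1 and 101 CPM with DMSO and at 83.2 and 105 CPM with SGSS05-NS. The treated pair enclosed the DMSO pair, with a log2 fold change of -0.03 (95% interval -0.29 to 0.22). SLC2A3 (chromosome 12 from 8071826 to 8171603, minus strand) encodes GLUT3, the carrier typical of neurons. It had 0 fragments in each of the 4 libraries, which allows up to 3 fragments, or 0.12 to 0.135 CPM, in a library as far as counting error goes. Its near-identical copy SLC2A14 was at 0 as well, and fragments that fit more than 1 place, 14.3% to 15.4% of all, were assigned to neither.

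The hexokinases, which trap glucose in the cell by phosphorylation, did not pass the threshold of 0.001. HK2 (chromosome 2 from 75061254 to 75120486, plus strand, 18 exons), the form induced in many tumours, was at 63.6 and 79.4 CPM with DMSO and at 55.6 and 58.3 CPM with SGSS05-NS. Both treated libraries were below both DMSO libraries, which themselves differed by more than the treated ones did. The log2 fold change was -0.33 (95% interval -0.57 to -0.08) with an adjusted p-value of 0.0319 by edgeR's quasi-likelihood test, past 0.05 but not 0.001. Without DMSO replicate 2, the higher of the DMSO libraries, the value was -0.18 and the adjusted p-value 0.356. HK1 (chromosome 10 from 71029740 to 71161640, plus strand, 18 exons), the form of brain and most tissues, was at 162 and 159.5 CPM with DMSO and at 143 in both treated libraries. The pairs did not overlap, and the log2 fold change of -0.17 (95% interval -0.36 to 0.03) did not pass either threshold (adjusted p = 0.146). The FPKM ratio of HK2 to HK1 was 0.252 and 0.319 with DMSO and 0.249 and 0.261 with SGSS05-NS, pairs that overlapped (exact permutation p = 0.667).

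Of the genes among the 10 that decide the fate of pyruvate, LDHA was the one that passed the threshold, and it was lower. LDHA (chromosome 11 from 18416107 to 18429972, plus strand, 8 exons) encodes the muscle-type subunit of lactate dehydrogenase, which turns pyruvate into lactate. It was at 600.4 and 623 CPM with DMSO and at 429 and 415 CPM with SGSS05-NS. Both treated libraries were clearly lower, and within each group the values were close. The mean went from 611 ± 15.7 to 422 ± 9.56 CPM (SD, n = 2 each), with a log2 fold change of -0.53 (SE 0.09, 95% interval -0.73 to -0.33) and an adjusted p-value of 0.000628 by edgeR's quasi-likelihood test. In fold, LDHA was between 1.26 and 1.66 times lower. Without DMSO replicate 2 the log2 fold change was -0.53 and the adjusted p-value 0.00127, above the threshold. LDHB, which encodes the heart-type subunit of the same enzyme, was at 1045 and 999 CPM with DMSO and at 942 and 1061 CPM with SGSS05-NS. Its pairs overlapped, and the FPKM ratio of LDHA to LDHB went from 0.334 and 0.362 to 0.265 and 0.228 (exact permutation p = 0.333, the smallest possible).

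PKM (chromosome 15 from 72491370 to 72524160, minus strand, 11 exons), whose pyruvate kinase makes the pyruvate, was the most abundant of the 10 genes. It was at 1170 and 1108 CPM with DMSO and at 1009 and 1115 CPM with SGSS05-NS. The pairs overlapped and the log2 fold change was -0.10 (95% interval -0.31 to 0.11). Its M1 and M2 forms differ in which of a pair of exons is kept and are not separated by counts per gene, and PKM and LDHA have processed copies in the genome to which some fragments fit equally well. PDK1 (chromosome 2 from 173420101 to 173473397, plus strand, 11 exons) encodes a kinase that shuts pyruvate dehydrogenase and so keeps pyruvate out of the mitochondrial cycle. It was at 27.5 and 35.6 CPM with DMSO and at 22.6 and 33.2 CPM with SGSS05-NS. In both groups replicate 2 was the higher library, and the spread within a group exceeded the difference between groups (log2 fold change -0.17, 95% interval -0.54 to 0.19).

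**Figure D3:**
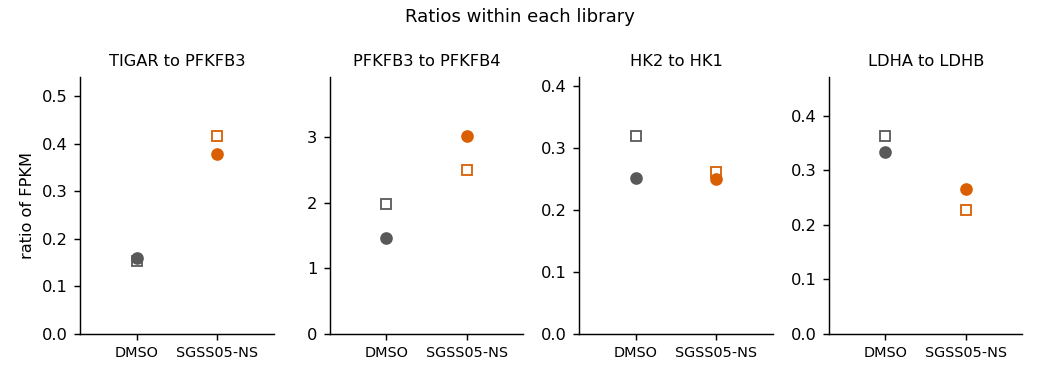
FPKM ratios, by canonical transcript length, of gene pairs within each of the 4 libraries (vertical axes start at 0). Filled circles are replicate 1 and open squares replicate 2. The ratios of TIGAR to PFKFB3 and PFKFB3 to PFKFB4 are higher in both SGSS05-NS libraries, LDHA to LDHB is lower in both, and HK2 to HK1 overlaps.

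The rest of the pathway was described with 8 lists of related genes, 117 in all, of which 92 were tested. At 0.001, 14 were higher, 4 were lower and 74 did not pass, beside 6.37% higher and 8.14% lower over all genes. Their median log2 fold change was 0.03. Of the other glycolytic enzymes, 1 of 18 tested was higher and none was lower, with a median of -0.00. At 0.05, 4 were higher and none was lower, and the counts of higher genes are near the shares over all genes (6.37% and 22.6%). The gene that passed was ENO3, muscle enolase, at 2.83 and 2.53 CPM with DMSO and 6.22 and 6.04 CPM with SGSS05-NS (log2 fold change 1.19, adjusted p = 0.000414 by edgeR's quasi-likelihood test). GAPDH and ENO1, the most abundant of these enzymes' transcripts, had log2 fold changes of 0.12 (adjusted p = 0.364) and 0.05 (adjusted p = 0.734). ALDOA, the main aldolase, had a log2 fold change of 0.36 with an adjusted p-value of 0.00778.

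Of the other genes of fructose bisphosphate turnover, 2 of 4 were tested and neither passed. FBP1, the phosphatase of gluconeogenesis, had a log2 fold change of -0.87 (adjusted p = 0.022), and PFKFB2 of -0.11 (adjusted p = 0.566). The other sugar transporters had none higher and 1 lower of 7 tested, beside 6.37% and 8.14% of all genes, with a median of 0.00. The lower gene was SLC2A13, a carrier of myo-inositol and not of glucose, at 29.3 and 31.6 CPM with DMSO and 11.1 and 14.1 CPM with SGSS05-NS (log2 fold change -1.27, adjusted p = 1.85e-05). SLC2A11 had a log2 fold change of 0.63 with an adjusted p-value of 0.0076.

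Genes of pyruvate and lactate handling had 1 higher of 16 tested at 0.001, against 6.37% of all genes, and none lower (median -0.14). It was SLC16A3, the lactate exporter MCT4, with 10 and 8 fragments against 31 and 40 (log2 fold change 2.05, adjusted p = 0.000602), so it was higher but scarce in both groups. PC, pyruvate carboxylase, had a log2 fold change of -0.53 with an adjusted p-value of 0.00295. At 0.05, 2 of this list were higher, against 22.6% of all genes, and 3 were lower, against 23.7%. Lower with PC were the pyruvate dehydrogenase genes PDHA1 (-0.38, adjusted p = 0.00583) and PDHB (-0.35, adjusted p = 0.00774), by edgeR's quasi-likelihood test. The pentose phosphate pathway, toward which TIGAR directs glucose, had none of 8 tested genes past 0.001 in either direction and a median of -0.07. At 0.05, 2 of the 8 were higher, near the 22.6% of all genes, the transketolase gene TKT (log2 fold change 0.43, adjusted p = 0.00257) and PGD (0.26, adjusted p = 0.0319).

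Regulators of glycolysis had 3 lower of 13 tested, against 8.14% of all genes (median -0.16). EPAS1, which encodes the hypoxia factor HIF-2 alpha, was at 227 and 237 CPM with DMSO and at 103 and 96.1 CPM with SGSS05-NS (log2 fold change -1.22, adjusted p = 1.76e-06). MYC was at 169 and 174 CPM against 93.1 and 67.6 CPM (log2 fold change -1.09, adjusted p = 4.64e-05). MYCN was the other of these 3 lower genes. At 0.05, 5 of the 13 were lower, against 23.7% of all genes, and 2 were higher, against 22.6%. HIF1A and ARNT were lower at 0.05 only. HIF1A was at 267 and 278 CPM with DMSO and at 206 and 188 CPM with SGSS05-NS. Its log2 fold change was -0.47 (adjusted p = 0.00186) and that of ARNT -0.38 (adjusted p = 0.00738), by edgeR's quasi-likelihood test.

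The lists on which most of the higher genes stood were targets of hypoxia factors outside glycolysis and p53 targets with a role in metabolism. Of 17 tested hypoxia targets 5 were higher, against 6.37% of all genes, and none was lower, against 8.14% (median 0.53). DDIT4, an inhibitor of mTORC1, was at a log2 fold change of 2.01 (adjusted p = 2.39e-07) and P4HA2, a collagen prolyl hydroxylase, at 2.07 (adjusted p = 2.51e-06). VEGFA, KDM3A and STC2 were the other 3. Many of these genes also answer to other stresses, and DDIT4 is a p53 target as well. Of 11 tested p53 targets of metabolism 6 were higher, against 6.37% of all genes, and none was lower, against 8.14% (median 0.89). The sestrin genes were SESN2 at 3.82 (adjusted p = 2.23e-09) and SESN1 at 1.79 (adjusted p = 2.27e-07), both by edgeR's quasi-likelihood test. TIGAR at 2.02 lay between these sestrins. RRAD, FDXR, PRKAB1 and RRM2B were the other 4 higher genes.

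By likeness of profile over the 4 libraries, 13 genes lay within a root mean square distance of 0.1 from TIGAR, on log2 CPM values centred on their own mean. The nearest were LBH (distance 0.0582), PRNP (0.0599) and RRH (0.0616). LBH was at 1.24 and 1.33 CPM with DMSO and 5.77 and 5.53 CPM with SGSS05-NS. PRNP, the prion protein gene, was at 6.26 and 6.63 CPM against 25.3 and 28.2 CPM, a level and a pattern near those of TIGAR. RRH was listed at under 0.1 CPM with DMSO, so its likeness rests on few fragments and on the prior count, and it did not pass 0.001 (fitted log2 fold change 2.81, adjusted p = 0.00124). The likeness is a description over 4 libraries in 2 groups.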

How the data were processed

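RNA of SY5Y cells was sequenced in 4 libraries, which the study's methods describe as independent biological replicates, 2 per group as labelled. The p-values set the difference between groups against the spread between libraries of a group. With 2 libraries per group, the spread of a gene was estimated partly from the other genes. The authors trimmed paired reads (Trimmomatic 0.30), aligned them to hg19 (STAR 2.4.2a) with GENCODE 19 and deposited raw gene counts, in fragments, without normalization or pooling. The labels name the TruSeq RNA kit and the methods a stranded kit. About 5% of gene fragments lay in the column of the other strand (4.64% to 5.05%), so column 4 was used. The 4 summary entries of each file, such as unmapped and ambiguous fragments, did not enter library sizes.

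Symbols, positions and canonical transcripts came from GENCODE 44 on GRCh37, a later release than the one counted. The older gene identifiers of TXNIP, SCO2 and PECAM1 had no match, and these genes have no value here. The test was edgeR's quasi-likelihood test (edgeR 4.0.16, R 4.3.3) after filterByExpr and TMM scaling (Benjamini-Hochberg over 16468 genes, threshold 0.001, two-sided). Levels are TMM-normalised CPM, and FPKM divides them by canonical transcript length. DESeq2 1.42.0, limma voom 3.58.1, the likelihood ratio test, other scalings, filters, strand and thresholds, the replicate number as a block, and leaving out each library were tried. The quasi-likelihood test was also run on counts simulated from the means and spread of this same fit, with libraries drawn independently. Such counts cannot show a batch or a poor fit of the model.

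The genes, the lists and the tests were chosen with earlier results of these data known. Named were the 10 genes, the 2 genes of each list with the smallest p-value, the 3 nearest to TIGAR in profile, and KMT5A. LDHB, GAPDH, ENO1, SLC2A14, PDHA1, PDHB, HIF1A, ARNT, MYCN, VEGFA, KDM3A, STC2, RRAD, FDXR, PRKAB1, RRM2B, TH, PDGFRB, EPCAM, KRT5 and HBB were named after their values were seen. The result of 1 listed gene is not reported here.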

Additional observations from a re-analysis of the deposited data

Results flagged for a closer look

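In the column of the strand opposite to the genes, which no comparison above uses, SLC2A1 had 12 and 6 fragments with DMSO and 23 and 17 with SGSS05-NS. The mean opposite-strand level was 0.512 CPM higher with SGSS05-NS than with DMSO. Of the 10 genes, SLC2A1 was picked because both treated libraries lay above both DMSO libraries, with at least 10 such fragments in all, so this separation is the rule itself. Over all genes the opposite-strand share was also higher with SGSS05-NS (5.05% and 5.04%) than with DMSO (4.67% and 4.64%). The opposite-strand fragments were 0.253% to 1.23% of those at SLC2A1, and the difference there was not tested.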

How the results depend on the processing

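TIGAR was called in the 9 other settings (log2 fold change 1.97 to 2.05) and in the 4 fits with 1 library left out (1.91 to 2.10). With 1 library left out, the lone library of a group is assumed to vary like the others. The number of the 10 genes that were higher (2) ranged from 1 to 2 in these fits and the number lower (1) from 0 to 1. With scaling by library size only, 1 gene was higher (TIGAR) and 0 were lower, as PFKFB3 had 0.71 (adjusted p = 0.00108) and LDHA -0.50 (adjusted p = 0.00117); the cause was not tested. At a threshold of 0.05, 2 were lower, and among the other pathway genes 31 were higher and 11 lower, which follows from the threshold. Genes near 0 changed sign: PFKFB4 to 0.026 (library size only) and 0.00798 (at least 10 counts in every library). With 1 library left out, PFKFB4 ranged from -0.108 to 0.0787, SLC2A1 from -0.209 to 0.118 and PDK1 from -0.477 to 0.0667.

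Same-numbered replicates deviated together with a correlation of 0.053, under 0.1. With 2 libraries per group this cannot tell whether same-numbered libraries shared a batch, and the main test has no replicate block. With the replicate block, 2 of the 10 genes were higher and 1 lower, and over all genes 1759 were higher and 2007 lower, against 1049 and 1341 without it. The likelihood ratio test gave 2022 and 2267 over all genes, and no filter on low counts 2034 and 2570.

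A count of 0 at SLC2A3 allows up to 3 fragments in a library, and 2 libraries per group leave intervals as wide as -0.54 to 0.19 for PDK1.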
